A study of Mus musculus with 5 samples.

Results

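S100 proteins are small calcium-binding proteins, and 10 genes of the family were taken by symbol from the array annotation: S100a1, S100a4, S100a6, S100a8, S100a9, S100a10, S100a11, S100a13, S100a16 and S100b. Of these, 9 had a probe set that named them alone. These 9 held 12 of the 22626 probe sets that are not controls, and all 9 entered the 8940 genes tested. The only probe set of S100a11 carried 3 symbols, a pseudogene of S100a11 among them, so no value is given for that gene. S100a8 and S100a9, known from neutrophils, are set against the other 7. These are grouped here as broadly expressed, although S100a1 and S100b are best known from particular tissues. The members were chosen by symbol and selected on earlier knowledge of their measured values, the log2 levels of S100a8 and S100a9 at day 4 against day 0. The members' differences between the groups are therefore given as a description, without p-values.

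The RNA came from thymic cells of female C57BL/6J mice, 6 to 8 weeks old. Untreated mice gave 3 arrays, called day 0, and irradiated mice gave 2, called day 4 because 4 days had passed since the whole body received 550 cGy from a cesium source. That dose was sublethal, and no hematopoietic rescue followed. The sort kept cells without CD45, the common surface marker of blood cells, and without the epithelial marker EpCAM, but with VE-cadherin, which joins endothelial cells. Each array was a pool of several mice, and the labels call the day 0 cells endothelial and the day 4 cells CD45-negative stromal, although one protocol is given for both. Cdh5, the gene of VE-cadherin, stood at 11.57, 11.51 and 11.64 at day 0 and at 11.38 and 11.40 at day 4, on the log2 scale used throughout. Over all genes tested, 2.85% were called (a limma adjusted p under 0.05), 1.35% lower and 1.5% higher. An unadjusted limma p under 0.05 was seen for 21.2%, and these shares apply beside every such count below. No call was made among 18 endothelial identity genes, of which 1 had an unadjusted p under 0.05. The differences furthest from 0 were those of Tek (-0.40) and Sox18 (-0.29), and the list's mean level was 10.22 to 10.36 at day 0 and 10.06 to 10.39 at day 4. The 3' minus 5' signal of the Gapdh control, a sign of RNA quality, was 0.96, 0.90 and 0.93 at day 0 and 0.82 and 0.83 at day 4. That of the actin control was 1.59, 1.65 and 1.43 at day 0 and 1.35 and 1.39 at day 4. Both were lower on each day 4 array than on any day 0 array. The part of RNA quality in the results was not tested.

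An S100 protein carries a pair of EF-hands, helix-loop-helix folds that hold a calcium ion. Most members act as dimers that open a hydrophobic face on calcium binding and then bind a partner such as an annexin. S100a8 and S100a9 pair with each other into calprotectin, which fills the cytosol of neutrophils, takes up zinc and manganese, and signals through Toll-like receptor 4 once released. Most S100 genes of the mouse lie side by side on chromosome 3, while S100b lies on chromosome 10.

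The promoters of the neutrophil pair and, for contrast, of the broadly expressed S100a6 are shown because S100a8 and S100a9 were the members whose levels differed most between the groups. The sequences are the 250 bases before each annotated start in RefSeq's GRCm38.p6 annotation, at chr3:90668821-90669070 on the plus strand for S100a8, chr3:90695722-90695971 on the minus strand for S100a9 and chr3:90612644-90612893 on the plus strand for S100a6. Capitals mark 4 motifs searched on both strands after the sequences had been seen: the TATA box core TATAAA, the C/EBP core TTGCNNAA, the PU.1 core GAGGAAGT and the CCAAT box core.
S100a8: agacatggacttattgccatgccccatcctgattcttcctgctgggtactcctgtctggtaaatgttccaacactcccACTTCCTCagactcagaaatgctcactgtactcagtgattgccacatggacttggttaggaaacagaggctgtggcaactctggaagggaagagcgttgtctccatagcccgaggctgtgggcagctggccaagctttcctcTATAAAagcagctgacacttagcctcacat
S100a9: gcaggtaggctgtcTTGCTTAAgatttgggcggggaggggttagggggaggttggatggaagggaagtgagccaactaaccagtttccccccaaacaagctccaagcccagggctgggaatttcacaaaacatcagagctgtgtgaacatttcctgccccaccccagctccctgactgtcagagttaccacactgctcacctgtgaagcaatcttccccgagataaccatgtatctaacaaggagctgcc
S100a6: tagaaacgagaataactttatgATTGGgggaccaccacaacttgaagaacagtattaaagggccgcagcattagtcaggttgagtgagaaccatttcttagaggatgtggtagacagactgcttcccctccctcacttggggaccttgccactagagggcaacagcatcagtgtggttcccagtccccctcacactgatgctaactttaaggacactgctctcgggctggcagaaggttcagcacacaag
S100a8 held TATAAA 30 bases before its start and GAGGAAGT, read on the minus strand, 172 bases before it. S100a9 held TTGCTTAA, a match to the C/EBP core, 236 bases before its start, while a TATAAA began at the annotated start itself, outside the printed stretch. S100a6 held a CCAAT core on the minus strand. Over all 32851 promoters of that length, 12.4% held TATAAA, 9.56% the C/EBP core, 2.44% the PU.1 core and 33.8% CCAAT. Of the 9 members with a promoter in the table, S100a4 was the other with TATAAA and S100b the other with CCAAT. These are matches of letters, not measured sites, and the pair shared none of the 4 motifs within the printed 250 bases.

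S100a8 read 6.43, 6.18 and 6.30 at day 0 and 2.96 and 3.78 at day 4. S100a9, its dimer partner, read 5.44, 5.62 and 5.25 at day 0 and 3.54 and 3.58 at day 4. Both genes read higher on every untreated array than on either irradiated one, as did 23% of all genes tested. A gap of 2.40 for S100a8 and of 1.67 for S100a9 separated the nearest arrays. The S100a8 mean of 6.30 ± 0.12 (SD, n = 3) at day 0 and of 3.37 ± 0.58 (SD, n = 2) at day 4 gave a log2 difference of -2.93 ± 0.24 (SE), or 7.65-fold. For S100a9 the means of 5.44 ± 0.19 (SD, n = 3) and 3.56 ± 0.028 (SD, n = 2) gave a log2 difference of -1.88 ± 0.13 (SE), or 3.68-fold. The day 4 arrays lay close together for S100a9 (a range of 0.039) and further apart for S100a8 (a range of 0.82).

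All 4 day 4 values of the pair were below 4, the level a gene had to exceed on at least 2 arrays to be tested. Both genes passed that filter only through their 3 day 0 arrays, so their folds rest on background values at day 4. With values below 4 set to 4, a floor chosen after seeing the data, S100a8 was 4.93-fold lower and S100a9 2.71-fold lower. The log2 differences were then -2.30 ± 0.10 (SE) and -1.44 ± 0.13 (SE), and they depend on where the floor is set. Each was measured by 1 probe set, and the name of the S100a8 set marks probes that can match more than one transcript. S100a8 and S100a9 were 2 of the 121 genes called lower by limma, against 1.35% of all genes tested, and since the members were chosen with this contrast known the count supports nothing. At the level of probe sets, 2 of the 11 that passed the filter were called, both lower, against 1.39% of all probe sets called in either direction and 0.677% lower. Both genes differed by at least 2-fold downwards, as did 1.4% of all genes. By the size of the difference in either direction S100a8 ranked 10 and S100a9 ranked 56 among the 8940 genes. Like the counts, these ranks use the values the pair was chosen on, with background values at day 4, and support nothing. Without day 4 replicate 1 S100a8 differed by -2.52 and S100a9 by -1.86. Over all 5 fits that each left out 1 array, the difference ran from -3.35 to -2.52 for S100a8 and from -1.98 to -1.79 for S100a9. In sorted bulk cells, fewer cells of a type and less RNA per cell cannot be told apart.

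**Figure D1:**
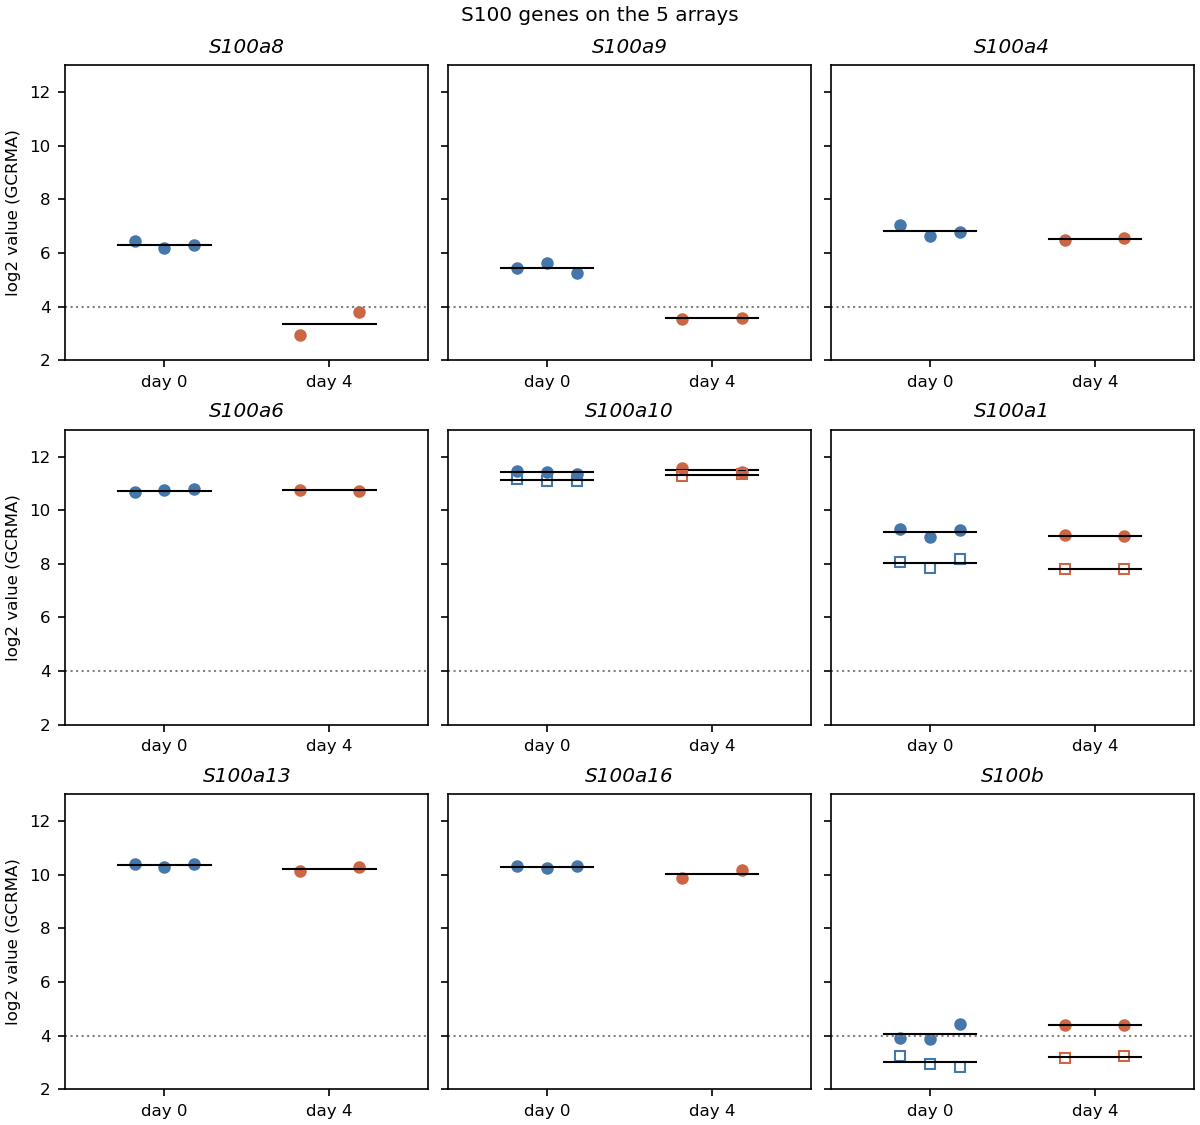
Log2 values (GCRMA) of the 9 measured S100 genes at day 0 (blue, 3 arrays) and day 4 (orange, 2 arrays), with group means as bars, the filter level of 4 dotted, and the second probe set of S100a10, S100a1 and S100b as open squares. S100a8 and S100a9 lie above 5 at day 0 and below 4 at day 4, the other genes move little, and heights are not comparable between genes because each probe set has its own response.

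Among the broadly expressed members, S100a10 encodes p11, the partner of annexin A2 at the plasma membrane, whose EF-hands have lost calcium binding. It read 11.46, 11.43 and 11.34 at day 0 and 11.58 and 11.42 at day 4, a log2 difference of 0.092 ± 0.10 (SE), and the groups overlapped. Leaving out day 4 replicate 1 made it 0.017, leaving out day 4 replicate 2 made it 0.17, and leaving out day 0 replicate 3 made it 0.057. A second probe set read 11.17, 11.09 and 11.09 at day 0 and 11.26 and 11.36 at day 4, a difference of 0.19 without overlap, as was seen for 39.6% of all probe sets. The probe set of the higher level carries the array maker's mark for probes that may cross-hybridise. S100a6 encodes calcyclin, which binds annexins and the calcyclin-binding protein. Its values of 10.66, 10.74 and 10.78 at day 0 and 10.77 and 10.73 at day 4 interleaved. Its difference of 0.027 ± 0.091 (SE) was the smallest of the 9 members and had no stable sign, being -0.0035 after median centring of the arrays and -0.0052 without day 0 replicate 1.

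S100a4, known as metastasin and found in fibroblasts and macrophages, binds non-muscle myosin. It read 7.03, 6.62 and 6.78 at day 0 and 6.48 and 6.56 at day 4. Both day 4 arrays lay below all day 0 arrays, by a gap of 0.055 that was smaller than the day 0 range of 0.41, and the difference of -0.28 ± 0.14 (SE) was -0.17 without day 0 replicate 1. S100a16, a widely expressed member, read 10.33, 10.25 and 10.31 at day 0 and 9.89 and 10.17 at day 4. Its groups did not overlap either, but its difference of -0.27 ± 0.11 (SE) leaned on day 4 replicate 1, without which it was -0.13, against -0.41 without day 4 replicate 2.

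S100a13 takes part in the release of FGF1, a growth factor without a signal peptide, and read 10.40, 10.27 and 10.38 at day 0 and 10.13 and 10.30 at day 4. The groups overlapped, and the difference of -0.14 ± 0.10 (SE) was -0.050 without day 4 replicate 1 and -0.23 without day 4 replicate 2. S100a1, a regulator of calcium handling in heart and muscle whose gene starts head to head with S100a13, read 9.32, 9.01 and 9.27 at day 0 and 9.06 and 9.04 at day 4. The difference was -0.15 ± 0.12 (SE), and a second probe set gave -0.23 with groups that did not overlap by a gap of 0.031. Both probe sets of S100a1 were lowest among the untreated arrays on day 0 replicate 2, and the difference was -0.24 without that array and -0.093 without day 0 replicate 1.

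S100b, best known from astrocytes and Schwann cells, lay near the filter level at 3.91, 3.86 and 4.45 at day 0 and 4.40 and 4.38 at day 4. Day 0 replicate 3 lay above both day 4 arrays, and the difference of 0.32 ± 0.19 (SE) was 0.51 without that array. Its second probe set stayed below 4 on every array, between 2.81 and 3.23. Of 4 tested Schwann cell genes 0 passed the limma threshold, 1 had an unadjusted p under 0.05, and the list's mean level was 4.54 to 4.69 at day 0 and 4.75 to 4.86 at day 4. Sox10, the transcription factor that defines the lineage, read 4.97, 4.93 and 4.77 at day 0 and 4.92 and 5.01 at day 4. Mbp, which encodes myelin basic protein, differed by 0.69 ± 0.25 (SE, limma adjusted p = 0.186), while its other probe sets gave 0.069, -0.82 and 0.90. Ngfr, a neurotrophin receptor gene, differed by -0.22 (limma adjusted p = 0.347).

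Side by side, the log2 differences of the 7 broadly expressed members ran from -0.28 to 0.32, with a median of -0.14, and over all genes tested the median was -0.023. The largest of them, that of S100b, was 1.25-fold, and 0 of the 7 were called by limma, against 2.85% of all genes in either direction. The groups did not overlap for 2 of the 7, S100a4 and S100a16, both lower at day 4. Over all genes 41.1% did not overlap, 23% with day 4 lower and 18% with day 4 higher, so such separation was common. Averaged over genes and centred on the day 0 mean, the neutrophil pair stood at 0.065, 0.033 and -0.098 at day 0 and at -2.62 and -2.19 at day 4. The same average of the broad members stood at 0.035, -0.098 and 0.063 at day 0 and at -0.079 and -0.036 at day 4. That is within the day 0 range, but the average mixes signs, with 4 members lower and 3 higher. It leans upwards at day 4 on S100b (0.32), which lay near the filter level, and an average without S100b was not taken.

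**Figure D2:**
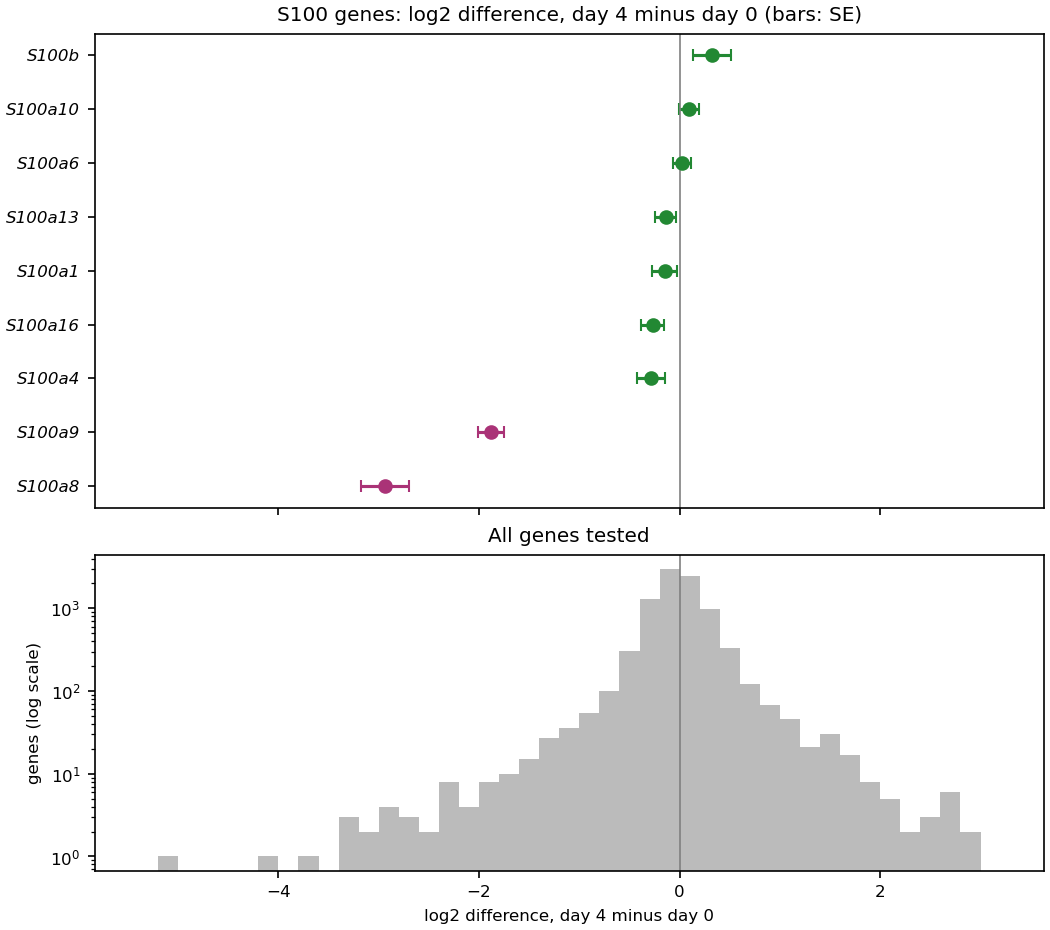
Top, the log2 difference (day 4 minus day 0) of each measured S100 gene with its limma SE, S100a8 and S100a9 in purple and the others in green. Bottom, the differences of all 8940 genes tested on the same x axis with counts on a log scale: the broad members, between -0.28 and 0.32, sit in the body of that distribution, and S100a9 (-1.88) and S100a8 (-2.93) in its lower tail.

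Other S100 genes on the array were few and low. S100a3 and S100a5 stayed under the filter, with highest values of 3.59 and 3.68. S100g, the vitamin D-dependent calcium binder calbindin-D9k, read 4.04, 3.20 and 4.62 at day 0 and 2.46 on both day 4 arrays, a difference of -1.49 ± 0.38 (SE) that did not pass (limma adjusted p = 0.0963). S100a14, a member found in epithelia, read 4.15, 3.70 and 4.38 at day 0 and 3.23 and 3.26 at day 4, a difference of -0.83 ± 0.20 (SE, limma adjusted p = 0.0841). Both were lower on each day 4 array than on any day 0 array, both day 4 means lay under the filter, and both passed it only through day 0 arrays. Without day 0 replicate 2, S100g (-1.87, limma adjusted p = 0.0183) and S100a14 (-1.02, limma adjusted p = 0.0284) did pass. With values below 4 set to 4, S100g differed by -0.22 (limma adjusted p = 0.558) and S100a14 by -0.18 (adjusted p = 0.468), so these differences rest on background values at day 4. Of 12 tested thymic epithelial genes, 0 passed and 7 had an unadjusted p under 0.05. Without day 0 replicate 2, 1 of them, Cldn4, was called. Their mean level was 6.95 to 7.53 at day 0 and 5.93 to 6.77 at day 4. Trp63, a regulator of epithelial progenitors, differed by -1.41 (limma adjusted p = 0.131) and the thymic chemokine gene Ccl25 by -1.27 (adjusted p = 0.230). The part of epithelial signal in S100g and S100a14 was not tested.

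The genes that flank the S100 genes in RefSeq gene order gave no calls: of 30 neighbours 15 were on the array and 9 were tested, with 0 called by limma, 1 at an unadjusted p under 0.05 and a median difference of -0.18. Rptn, which encodes the epidermal protein repetin, differed by -1.63 (limma adjusted p = 0.197) and Lor, which encodes loricrin of the skin barrier, by -0.45 (adjusted p = 0.242). Rptn was called without day 0 replicate 2 (-2.29, limma adjusted p = 0.00634) and Lor without day 4 replicate 2 (-0.78, adjusted p = 0.0411), named here after these values were seen. Both day 4 values of Rptn were below 4, and with values below 4 set to 4 its difference was -0.69 (limma adjusted p = 0.297).

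The intracellular partners of S100 proteins were measured in 12 of 15 cases, and 0 passed the limma threshold, while 3 had an unadjusted p under 0.05, as had 21.2% of all genes. Anxa1, the annexin that S100a11 binds, read 10.05, 10.15 and 10.09 at day 0 and 10.73 and 10.38 at day 4, a difference of 0.46 ± 0.13 (SE, adjusted p = 0.118). It passed without day 4 replicate 2 (0.63, adjusted p = 0.0490). Ahnak, a giant scaffold that binds the complex of S100a10 and annexin A2, differed by 0.32 (limma adjusted p = 0.163) and Atp2a2, the calcium pump that S100a1 acts on, by 0.30 (adjusted p = 0.215). Anxa2 itself, the partner of S100a10, read 10.90, 10.82 and 10.77 at day 0 and 10.83 and 11.07 at day 4, a difference of 0.13. The calcyclin-binding protein gene Cacybp differed by 0.089, Sugt1, whose co-chaperone product binds S100a6, by -0.021, Anxa6 by -0.088 and the non-muscle myosin gene Myh9, the partner of S100a4, by 0.022. The kinase gene Stk38, which S100b regulates, differed by 0.066, the phosphatase gene Ppp5c by 0.14, S100pbp by 0.064 and Fgf1, the cargo of S100a13, by -0.17. Other probe sets of Anxa6 (0.030 and 0.23) and Ppp5c (-0.12 and -0.052) and one of Myh9 (-0.13) gave the opposite sign. The median of the list was 0.077, and the listed genes Ryr1 and Syt1 stayed under the filter.

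Receptors through which S100 proteins act outside the cell were measured in 10 of 11 cases, and 1 passed the limma threshold, upwards, against 1.5% of all genes called higher. An unadjusted p under 0.05 was seen for 2 of the 10. Cd14, the co-receptor that hands ligands to Toll-like receptor 4, rose from 7.40, 6.90 and 6.93 at day 0 to 8.37 and 8.38 at day 4, or 2.46-fold (log2 difference 1.30 ± 0.17 SE, adjusted p = 0.0219). Both day 4 arrays lay above all day 0 arrays. On the same arrays 13 of 14 macrophage genes also had positive differences, with a median of 1.61. The part of macrophages in the Cd14 difference was not tested. The call was lost without day 0 replicate 3 (1.22, adjusted p = 0.0831), day 4 replicate 1 (1.31, limma adjusted p = 0.115) or day 4 replicate 2 (1.29, adjusted p = 0.0573). Weighting the arrays by quality lost it as well (1.32, limma adjusted p = 0.0581). Tlr4 read 5.75, 5.87 and 5.87 at day 0 and 6.04 and 6.02 at day 4, a difference of 0.20 (limma adjusted p = 0.274) without overlap. The Tlr4 co-factor Ly96 differed by 0.24 and the adaptor Myd88 by 0.32 (limma adjusted p = 0.144). Ager, which encodes the receptor for advanced glycation end products, read 4.42, 4.01 and 4.04 at day 0 and 3.87 and 3.80 at day 4, a difference of -0.32 (limma adjusted p = 0.271) near the filter level. Of the other receptor genes, Alcam differed by -0.53, Bsg by -0.21, Nptn by 0.16 and Mcam by 0.073, and none of these passed. The scavenger receptor gene Cd36, abundant in capillaries, differed by -0.12, and its other probe sets gave 0.0093 and -0.21. Cd33 stayed under the filter, with a highest value of 3.87.

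**Figure D3:**
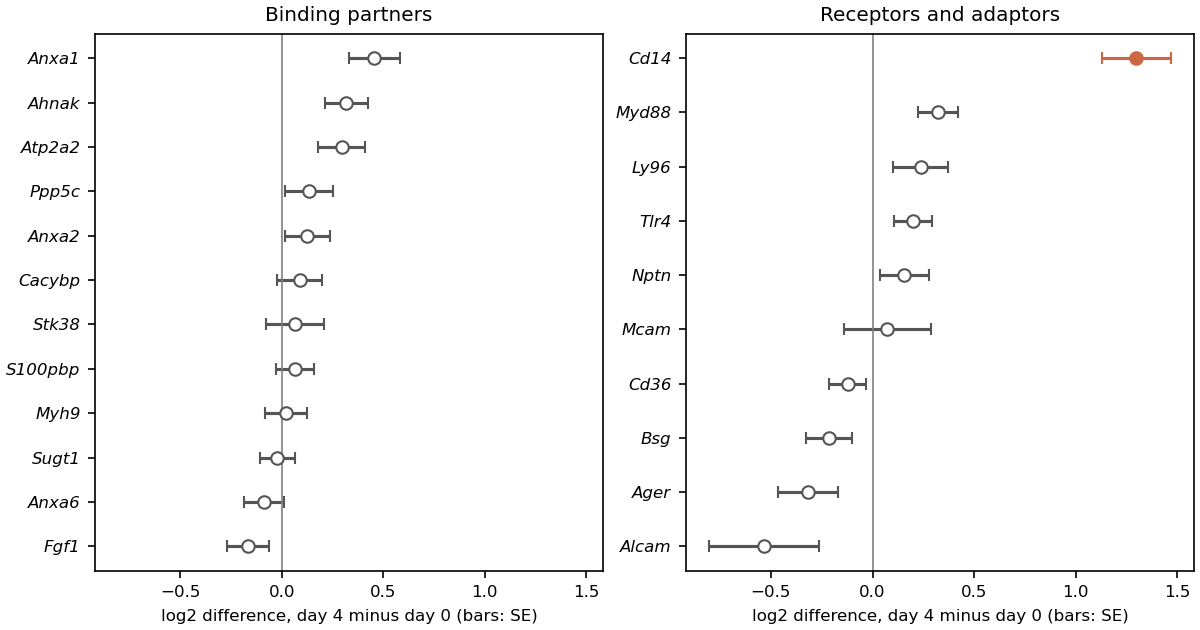
Log2 difference (day 4 minus day 0) with limma SE for the 12 tested binding partners of S100 proteins (left) and the 10 tested receptors and adaptors (right), open where the gene did not pass the threshold and filled where it did. Cd14 is the filled point at 1.30, and the partners lie between -0.17 and 0.46.

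Of 13 tested genes of other EF-hand calcium sensors, 1 was lower and 0 higher by limma, against 1.35% and 1.5% of all genes. An unadjusted p under 0.05 was seen for 5, against 21.2% of all genes. The median difference was -0.17, with 11 genes negative and 2 positive. Cetn2, which encodes a centriole protein, fell by 0.57 on the log2 scale (adjusted p = 0.0489), from 8.77, 8.78 and 8.59 to 8.19 and 8.09. That call sat at the threshold and was lost without any single array (adjusted p of 0.0845 to 0.150), with array weights (adjusted p = 0.105) and with no level filter (adjusted p = 0.0579). Efhd2, an actin-linked EF-hand protein, differed by 0.48 (limma adjusted p = 0.0546). The calmodulin genes, archetypes of EF-hand sensors, had no probe set with their symbol alone.

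Other genes known from neutrophils were mostly not detected above the filter on any array. Of 22 on the array, 16 stayed under the filter, and 15 of these were at or below 4 on all 5 arrays, with a highest value of 3.95. They included the granule proteases Elane, Prtn3 and Ctsg, the peroxidase gene Mpo, and the receptors Csf3r and Cxcr2 that guide neutrophil growth and migration. Ltf, which encodes lactoferrin, read 3.52, 3.78 and 3.54 at day 0 and 4.59 and 3.97 at day 4; this secondary granule gene was above 4 on 1 array. Of the 6 tested, 3 had an unadjusted p under 0.05, and Camp, which encodes the granule peptide cathelicidin, was called lower by limma. Camp read 4.37, 4.16 and 4.23 at day 0 and 2.86 and 3.42 at day 4 (log2 difference -1.11 ± 0.18 SE, adjusted p = 0.0346). Its day 4 values were under the filter, and with values below 4 set to 4 its difference was -0.25 (limma adjusted p = 0.223). The Camp call was also lost without day 0 replicate 1 (-1.05, limma adjusted p = 0.0808), day 0 replicate 2 (-1.16, adjusted p = 0.0723), day 0 replicate 3 (-1.12, adjusted p = 0.111) or day 4 replicate 1 (-0.83, limma adjusted p = 0.0951). Array weights lost it as well (-1.10, limma adjusted p = 0.0570).

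The other 5 tested neutrophil genes did not pass and had values of both signs. Pglyrp1, a bactericidal granule protein, differed by -0.48 (limma adjusted p = 0.219), Anxa3 by 0.28, Il1r2 by 0.26, Lcn2 by 0.19 and Mmp9 by 0.0018. With no level filter the list had 2 lower genes, Camp and Chil3 (-0.90, limma adjusted p = 0.0201), and Chil3 read 3.19, 3.31 and 3.47 at day 0 and 2.43 on both day 4 arrays, all below 4. The mean level of the 6 tested genes was 5.84 to 6.04 at day 0 and 5.77 to 5.78 at day 4. Anxa3 raises that mean, with readings of 10.20, 10.26 and 10.32 at day 0 and 10.45 and 10.62 at day 4. The other 5 had day 0 means of at most 5.45, and a mean without Anxa3 was not taken. The part of neutrophils in the S100a8 and S100a9 values was not tested.

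Blood cell markers moved in both directions beside the S100 pair, and the part of these cells in the pair's values was not tested. Over all genes tested, 1.5% were called higher and 1.35% lower, and 21.2% had an unadjusted p under 0.05. Of 14 macrophage genes 4 were higher by limma, 0 were lower and 13 had an unadjusted p under 0.05. The list's mean level was 5.71 to 6.57 at day 0 and 7.63 to 7.71 at day 4. These 4 were the scavenger receptor gene Cd163 (2.89), Cd5l (2.74), the complement receptor gene Vsig4 (2.69) and the Fc receptor gene Fcgr1 (2.37), with adjusted p of 0.0113 to 0.0346. Cd163 (3.58, 2.78 and 3.63) and Vsig4 (3.77, 2.25 and 2.61) were below 4 on every day 0 array and passed the filter only through the day 4 arrays. With values below 4 set to 4, all 4 were again called, at 2.22 for Cd163, 2.51 for Cd5l, 1.56 for Vsig4 and 2.15 for Fcgr1. With day 0 replicate 1 left out 10 macrophage genes were called, with day 0 replicate 3 left out 2, and with either day 4 array left out 0. In the fits without a day 4 array 12 of the 14 were tested, since Cd163 and Vsig4 no longer passed the filter, and with array weights Cd163 alone was called. Of 10 thymocyte genes 7 were lower and 0 higher, and the mean level was 5.69 to 6.49 at day 0 and 4.12 to 4.24 at day 4. Among the genes called lower were the recombinase gene Rag1 (-4.01), the chromatin organizer Satb1 (-3.04), the homing receptor gene Ccr9 (-2.95) and the co-receptor gene Cd8b1 (-2.30), at limma adjusted p of 0.00566 to 0.0127. Other probe sets gave -3.01 and -0.88 for Satb1 and -1.14 for Ccr9. Rag1, Ccr9 and Cd8b1 were below 4 on both day 4 arrays and passed the filter only through day 0, so their differences rest on background values. With values below 4 set to 4, 6 thymocyte genes were called. Rag1 then differed by -3.11, Satb1 by -3.03 and Ccr9 by -1.89, while Cd8b1 (-1.21, limma adjusted p = 0.0589) was not called. Leaving out day 4 replicate 1 left 0 thymocyte calls, leaving out day 4 replicate 2 left 4, and leaving out day 0 replicate 3 left 1, while array weights left 4.

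Of 4 B cell genes 2 were lower by limma, Ms4a1 (-1.45, adjusted p = 0.0124) and Cd79b (-1.14, adjusted p = 0.0325). Both passed the filter only through day 0, and with values below 4 set to 4 neither was called, at -0.42 for Ms4a1 (limma adjusted p = 0.165) and -0.65 for Cd79b (adjusted p = 0.0757). Of the pair, 0 were called without day 0 replicate 3 or day 4 replicate 1, and Ms4a1 alone was called without day 0 replicate 1, without day 4 replicate 2 or with array weights. Of 5 dendritic cell genes Ccr7, a lymph node homing receptor, was lower (-1.31, limma adjusted p = 0.0403), a call kept only without day 4 replicate 2 among the fits that left out 1 array. H2-Ab1 and Cd74, genes of class II antigen presentation, differed by -0.87 and -0.77 and did not pass, while 3 of the 5 dendritic cell genes had an unadjusted p under 0.05. Of 7 erythroid genes on the array, Slc4a1, Epb42, Hba-a1, Klf1 and Rhag stayed under the filter. Of the 2 tested erythroid genes, Alas2, which starts heme synthesis in red cell precursors, was lower (log2 difference -2.58 ± 0.11 SE, limma adjusted p = 0.00107). The other, Ermap, differed by 0.18, while both day 4 values of Alas2 were below 4, so that it passed the filter only through day 0. With values below 4 set to 4, Alas2 differed by -2.15 (limma adjusted p = 0.00208). The fibroblast list had 0 calls by limma among 10 genes and 3 at an unadjusted p under 0.05, and the pericyte and smooth muscle list had 0 among 9 and 1 at an unadjusted p under 0.05. Mfap5 (0.72) and Pdgfra (-0.54) had the largest fibroblast differences, and Notch3 (0.26) and Kcnj8 (-0.24) the largest pericyte ones.

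**Figure D4:**
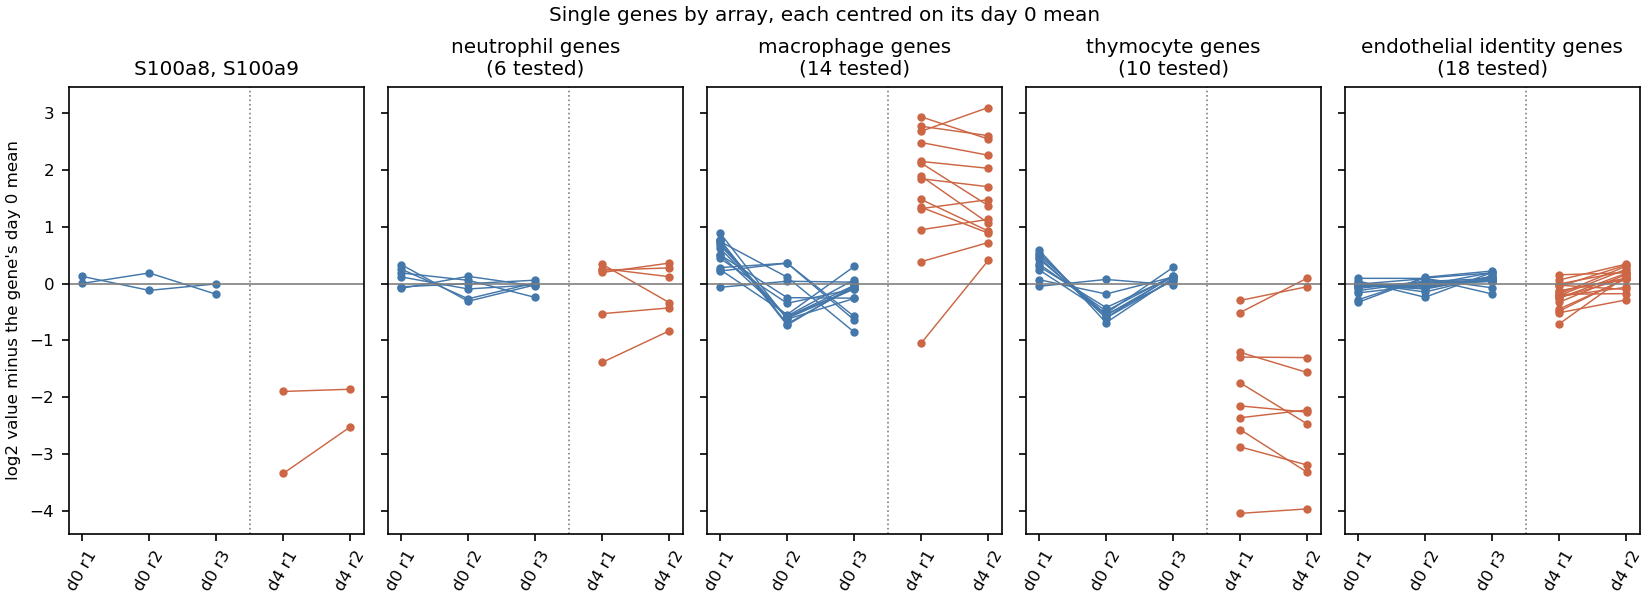
Log2 value of each gene minus its own day 0 mean on the 3 day 0 arrays (d0, blue) and 2 day 4 arrays (d4, orange), with lines that link the values of one gene, for S100a8 and S100a9, 6 neutrophil, 14 macrophage, 10 thymocyte and 18 endothelial identity genes. The S100 pair lies near 0 at day 0 and at -1.86 or lower at day 4, while the neutrophil genes that passed the filter spread to both sides of 0.

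The genes with profiles most like that of S100a8 were sought over all 5 arrays, as the smallest Euclidean distance between profiles that were each centred on their mean. In order they were Alas2 at a distance of 0.72, the thymocyte gene Cd8b1 at 0.96, Satb1 at 0.98, 2210407C18Rik at 1.13 and Myb, a transcription factor of blood progenitors, at 1.15. Alas2 read 6.31, 6.11 and 6.05 at day 0 and 3.58 and 3.56 at day 4. For S100a9 they were the survivin gene Birc5 at 0.48, the lymphotoxin gene Ltb at 0.51, Krtdap of keratinocytes at 0.56, the eosinophil granule gene Prg2 at 0.56 and the topoisomerase gene Top2a at 0.64. Prg2 read 5.72, 5.70 and 4.88 at day 0 and 3.36 and 3.83 at day 4, a log2 difference of -1.84. The distance between S100a8 and S100a9 themselves was 1.33, which put S100a9 at rank 15 among the profiles nearest to S100a8 and S100a8 at rank 134 among those nearest to S100a9. Both day 4 values of Alas2, Cd8b1, Birc5, Krtdap and Prg2 were below 4, as were those of the S100 pair, so these distances rest partly on background values. A distance on 5 arrays in 2 groups describes mostly the shared step between the groups and its size.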

How the data were processed

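The table deposited by the authors held 1 log2 value for each probe set and Affymetrix array. Per the submitters' processing notes, GCRMA produced it. The GCRMA version, and whether all 5 arrays went into one normalization, is not given in the sources used here. The method fits background from probe sequences and spreads low values, and the table has no detection calls. The log2 scale was read from the values, with array medians of 5.26 to 5.30.

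Of 22690 probe sets, 64 were controls, 20380 named 1 gene symbol, 691 several and 1555 none. Of the 20380, 20351 matched RefSeq by Entrez identifier, and 0 symbols changed. Probe sets above 4 on at least 2 arrays were kept (15065). Each gene took its probe set of highest mean. Day 4 was tested against day 0 in limma 3.58.1 (lmFit, eBayes; R 4.3.3), two-sided, with no covariate and Benjamini-Hochberg adjustment over 8940 genes, at 3 residual and 3.29 prior degrees of freedom. All differences are day 4 minus day 0, and SEs are limma's. The number of arrays limits the precision, and since each array was a pool of mice, p-values measure the spread between pools, which may be partly technical. On simulated data of the 8940 genes, 75% of 100 genes changed by 1 on the log2 scale and 98% of 100 changed by 2 were recovered, with 10 false calls. These shares need not hold for the measured genes: C1qa (2.09, limma adjusted p = 0.0529) and C1qc (1.78, adjusted p = 0.0548) were not called. A gene without a call is therefore not shown to be unchanged.

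The members, gene lists and tests were chosen with earlier results of these data known. Named were all members, every tested gene of the binding partner, receptor and other S100 lists, and of each other list up to 4 called genes of largest difference, or the 2 largest where fewer than 2 were called. Cd74, Chil3, Sox10, Ermap, Cdh5 and the neutrophil genes beyond Camp and Pglyrp1 were added to these after their values were seen. Figures were drawn with matplotlib 3.10.9. Promoters came from RefSeq (GRCm38.p6), while the build behind the array's annotation was not named.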

Additional observations from a re-analysis of the deposited data

How the results depend on the processing

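Quantile normalization, median centring, no level filter, the mean of probe sets and every probe set in place of genes kept the count of all called genes and that of called S100 genes within 1.5 times of 255 and 2. An intensity trend with robust fitting gave 418 genes, array weights 86 and 7 in the fixed lists against 18. Leaving out 1 array gave 10 (day 4 replicate 1) to 317 genes (day 4 replicate 2), 40 without day 0 replicate 3, and 1 to 20 in the fixed lists, 1 to 2 S100 genes (1, S100a8, without day 4 replicate 1) and 1 to 2 S100 probe sets. S100a8 and S100a9 were chosen on this contrast, so their counts are no sign of stability. With the level filter at 6, 1 S100 gene and 1 S100 probe set were called, because S100a9 was then not tested. S100a6 changed sign after median centring (-0.0035) and without day 0 replicate 1 (-0.0052, over a range of -0.0052 to 0.053), and the cause was not tested. With the replicate number as a block, which drops day 0 replicate 3 from the comparison, 481 genes were called, 42 in the fixed lists. The labels do not say that the numbers pair arrays, and deviations of same-numbered arrays from their group means correlated across genes at 0.16 and 0.078. Values below 4 set to 4, added after seeing the data, gave 215 genes. The day 4 level of S100a8 and S100a9 lay where GCRMA values are background, so the size of their difference depends on the floor that is set.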
